A study of Mus musculus with 11 samples.

Results

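The Cep genes encode centrosomal proteins, numbered by their approximate mass rather than by a shared fold. They were taken as the protein-coding genes of the RefSeq GRCm38.p6 annotation whose symbol is Cep followed by a number, without Cep63, Cep83, Cep89, Cep152, Cep162, Cep164 and Cep290. The 26 described here are among 21883 protein-coding genes on assembled chromosomes. Binding of the transcription factors RFX1, RFX2 and RFX3 was measured by chromatin immunoprecipitation and sequencing (ChIP-seq) in ependymal cells that had been differentiated ex vivo. The cells came from the lateral walls of the brain of wild-type OF1 mice, labelled as embryonic tissue and as age P0, with no other allele or agent named. There were 2 ChIP samples for each of RFX1, RFX2 and RFX3, each with its own antibody, and 2, 2 and 1 input samples for RFX1, RFX2 and RFX3. The RFX2 antibody lot differed between the 2 samples.

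Ependymal cells line the brain ventricles and carry many motile cilia, each grown from a basal body. A basal body is a centriole that has docked at the cell surface, and multiciliated cells make large numbers of centrioles before ciliation. Proteins of the Cep series build centrioles, cap or decorate them, hold centriole pairs together, gather the pericentriolar material that nucleates microtubules, or act at the base or tip of the cilium. RFX proteins bind an inverted repeat called the X-box, which is found in the promoters of many ciliary genes.

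The deposited data were 1 list of reproducible peaks per factor, holding 7440 RFX1 peaks, 1250 RFX2 peaks and 9318 RFX3 peaks. The samples of a factor were merged in its list, so no value below has a replicate error and no test between conditions was possible. Intervals (95%, exact Clopper-Pearson) cover the counting of genes only, and sequencing depth is unknown. A gene without a peak in a list was not called there, which does not show that the factor was absent. The lists hold no expression values, so the cell type could not be checked against marker expression. A gene was called bound when a peak summit, the position of strongest signal, lay within 1 kb of either annotated end of the gene.

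Of the 26 Cep genes, 8 were bound by at least 1 factor (30.8%, interval 14.3 to 51.8), against 10.1% of all protein-coding genes. RFX1 was bound at 6 Cep genes (23.1%, 8.97 to 43.6), against 9.05% of all genes. RFX2 was bound at 4 (15.4%, 4.36 to 34.9), against 2.08% of all genes. RFX3 was bound at 7 (26.9%, 11.6 to 47.8), against 7.94% of all genes. All 4 genes with RFX2 also had RFX1 and RFX3, as did 451 of the 455 RFX2-bound genes overall. Thus 15.4% of the Cep genes had all 3 factors, against 2.06% of all genes. The shares of Cep genes lay above those of all genes for each factor, although the RFX1 interval included the share of all genes, and 18 Cep genes had no peak at either end. The Cep genes were chosen with earlier results of these data known, so these intervals are not a test.

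Cep19, Cep112, Cep128 and Cep170 carried all 3 factors. Cep126 carried RFX1 and RFX3. Cep44 carried RFX1 alone, and Cep43 and Cep135 carried RFX3 alone.

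**Figure D1:**
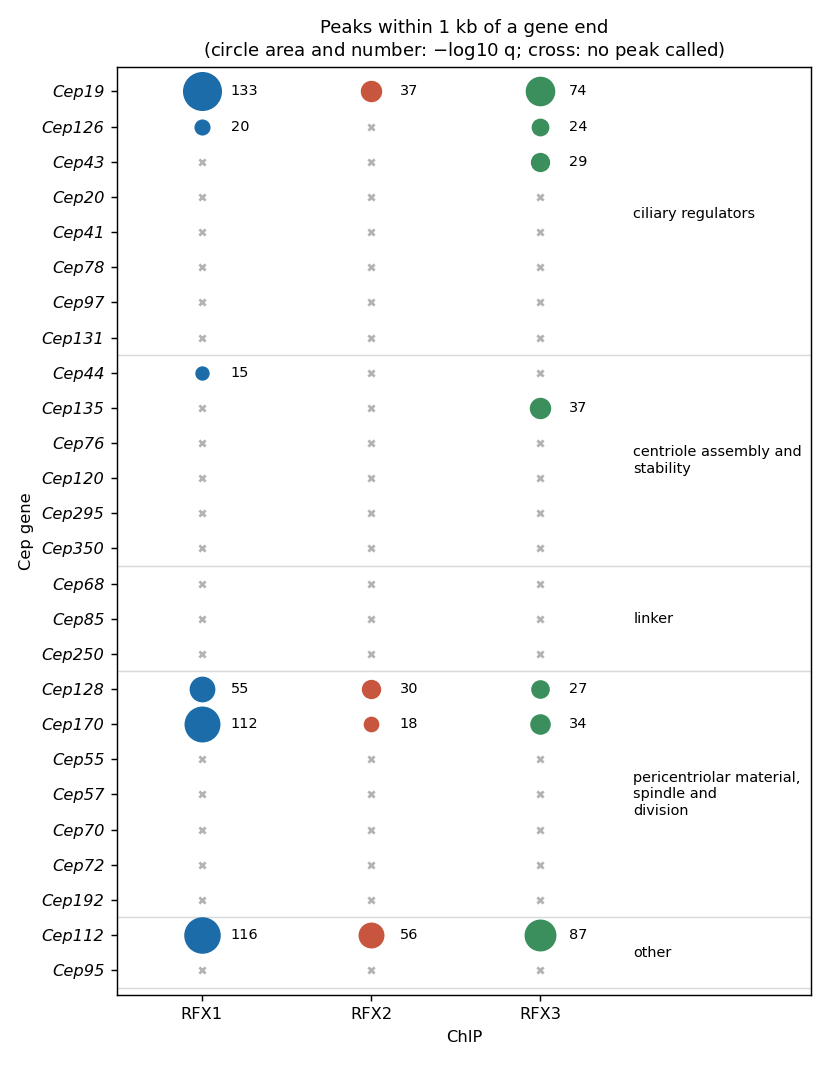
Peaks at the ends of the 26 Cep genes (rows, grouped by role) for RFX1, RFX2 and RFX3 (columns). Circle area and the number beside it give the −log10 q of the peak, and a cross marks a gene with no peak called within 1 kb; Cep19 and Cep112 have large circles in the RFX1 and RFX3 columns, and the linker genes have crosses throughout.

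Sequence of the bound promoters was read from the RefSeq promoter table (GRCm38.p6), which gives 250 bases before and 50 bases after each listed start and held 22 of the 26 Cep genes. The sites printed here are those that lay at or near RFX summits, and capitals mark the match to the X-box. The X-box was scored over 11 defined bases, with 0 to 3 free bases between its arms and on both strands, and a match had at most 1 mismatch. The Cep41 and Cep112 matches had no mismatch, and those of Cep19, Cep44 and Cep135 had 1. Sequences with 2 mismatches were not taken as matches, since they were the best found for 56.6% of all genes with no RFX at a listed start.
Cep19 (chr16:32099803-32099832, plus strand): agccttctGTTGCCTTGGGAACgatcctcg
Cep41 (chr6:30693859-30693887, minus strand): gtcccgcGTTGCCCTTGGCAACcattgag
Cep44 (chr8:56550661-56550690, minus strand): ttggtacgGTAGCCTTGGGAACctttcagt
Cep135 (chr5:76588653-76588682, plus strand): ggggcgccGTAGCCCCGGCATCggccggcc
The Cep112 promoter held a pair of matches without mismatch, and its 250 bases before the start (chr11:108425016-108425265, plus strand) are shown whole because the summits lay between them.
Cep112: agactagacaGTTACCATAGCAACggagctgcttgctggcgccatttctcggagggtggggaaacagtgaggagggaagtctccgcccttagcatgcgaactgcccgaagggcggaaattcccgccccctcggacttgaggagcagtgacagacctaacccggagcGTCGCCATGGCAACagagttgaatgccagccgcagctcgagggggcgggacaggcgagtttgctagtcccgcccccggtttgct

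Among the Cep genes grouped here as ciliary regulators, 3 of 8 were bound by at least 1 factor (interval 8.52 to 75.5%), against 10.1% of all genes. Cep19 encodes a basal body protein that recruits intraflagellar transport machinery in human cells. It lies on chromosome 16 at 32099789–32108068 and had the best RFX1 peak of any Cep gene. In the authors' peak calling, the RFX1 peak reached a fold enrichment over background of 13.1, the RFX2 peak 8.25 and the RFX3 peak 5.24. The −log10 q of these peaks was 133, 36.9 and 74.1, and 3.62%, 36.0% and 6.72% of their lists ranked above them. The RFX1, RFX2 and RFX3 summits lay 32, 29 and 30 bp inside the gene and 4, 1 and 2 bp from the centre of the X-box match. The 3 summits thus fell within 3 bp of each other, on the match itself.

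The same Cep19 peaks also lay 94, 91 and 92 bp from an end of Pigx, which encodes a protein of glycosylphosphatidylinositol anchor synthesis. Pigx is transcribed from the opposite strand, and its own promoter window reads the same X-box from the other side. Binding at this site cannot be assigned to one of the 2 genes from the peak positions.

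Cep126 encodes a microtubule-binding protein that is needed for cilium formation in human cells. It lies on chromosome 9 at 8076460–8134479, and its peaks were shared with no other gene end. The RFX1 peak had a fold of 6.87 and a −log10 q of 19.5, below the median of the RFX1 list (29.1). The RFX3 peak had a fold of 4.33 and a −log10 q of 24.4, above the median of the RFX3 list (19.9). The summits lay 61 bp apart, on either side of the listed start. No X-box match lay in its promoter windows. The 60 bases before the start (chr9:8134447-8134506, minus strand), shown as a bound promoter without a match and so with no capitals, follow.
Cep126: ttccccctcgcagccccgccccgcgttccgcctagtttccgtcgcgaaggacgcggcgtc

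Cep43, also known as FOP, encodes a centriolar and satellite protein that takes part in cilium formation. It had an RFX3 peak alone, with a fold of 10.6 and a −log10 q of 29.4, on chromosome 17 at 8165594–8165787. At 194 bp this was the narrowest of the 17 peaks called at Cep genes, which reached 621 bp. The summit was 564 bp inside the annotated gene but 189 bp downstream of the start in the promoter table. The nearest RFX1 summit was 87.1 kb away.

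Cep41, Cep78, Cep97, Cep131 and Cep20, the other ciliary regulators, were not called. Cep41 encodes a protein needed for tubulin glutamylation in the axoneme and is mutated in Joubert syndrome in humans. Its gene model ends on chromosome 6 at 30710517, while the promoter table lists a start at 30693749, inside the model. An RFX1 peak with a fold of 13.9 and a −log10 q of 95.3 lay 99 bp before that start. An RFX3 peak with a fold of 6.94 and a −log10 q of 71.3 lay 116 bp before it. Both were in the best 10% of their lists, with 9.03% and 7.37% of peaks above them. The summits were 25 and 8 bp from the centre of the X-box match without mismatch printed above. Cep41 was not counted because its annotated end lay 16669 bp (RFX1) and 16652 bp (RFX3) from these summits. It also held a weaker pair of internal peaks, with folds of 6.01 for RFX1 and 4.65 for RFX3.

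Cep78 encodes a centriolar protein linked to retinal degeneration with hearing loss, and its nearest summits were 64.4 kb (RFX1) and 65.2 kb (RFX3) away. Cep97 encodes the partner of the centriole cap protein CP110. Its promoter held 2 X-box matches with 1 mismatch each, yet its nearest summits were 31.4 kb (RFX1) and 18.4 kb (RFX3) from the gene. Cep131 encodes a centriolar satellite protein, and both its RFX1 and RFX3 summits were 12.8 kb away. Cep20, a relative of Cep43, had an RFX3 summit inside the gene at 4600 bp from its end, with a fold of 8.75.

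**Figure D2:**
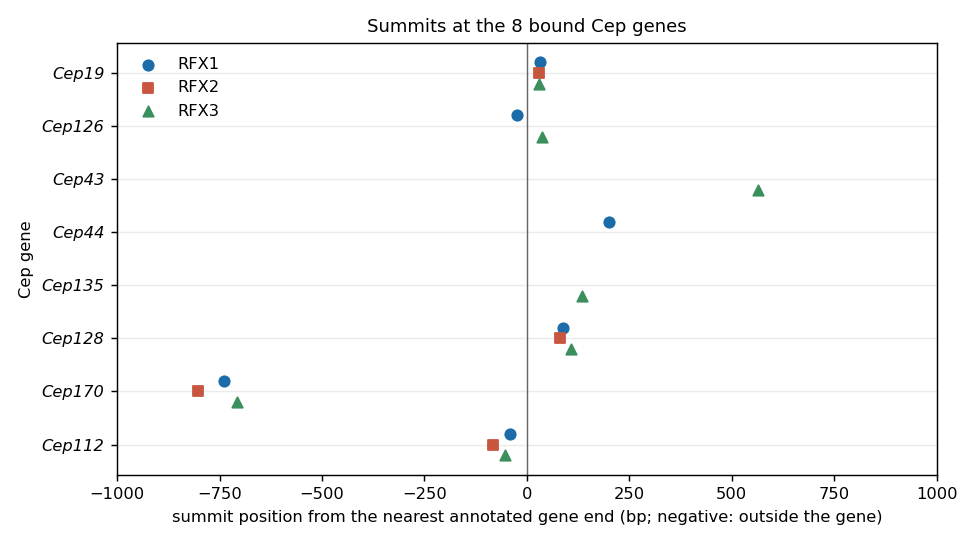
Position of each summit relative to the nearest annotated end of the 8 bound Cep genes, in bp, with negative values outside the gene. Symbols mark RFX1, RFX2 and RFX3; most summits lie close to 0, those of Cep170 lie 708 to 802 bp outside, and that of Cep43 lies 564 bp inside.

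Of the 6 genes for centriole assembly and stability, 2 were bound (interval 4.33 to 77.7%, against 10.1% of all genes), each by 1 factor. Cep44 encodes a protein of the inner centriole that acts in centriole to centrosome conversion in human cells. Its RFX1 peak, spanning 56550535–56550786 of chromosome 8, reached a fold of 5.69 with a −log10 q of 15.1, and 85.0% of the RFX1 list ranked above it. The summit was 201 bp inside the gene model and 109 bp before the listed start. It lay 1 bp from the centre of an X-box match with 1 mismatch. The same summit was 479 bp from an end of Fbxo8, an F-box gene. The nearest RFX3 summit was 809.9 kb from Cep44.

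Cep135 encodes a protein of the centriole cartwheel and wall. Its RFX3 peak, spanning 76588588–76588921 of chromosome 5, reached a fold of 5.01 with a −log10 q of 36.8, and 25.7% of the list ranked above it. The summit lay 89 bp downstream of the listed start and 121 bp from an X-box match with 1 mismatch. The nearest RFX1 summit was 169 kb away.

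Cep120, needed for centriole elongation, fell just outside the window. Its RFX1 summit was 1076 bp inside an end, with a fold of 6.86 and a −log10 q of 28.1. Its RFX3 peak was deep inside the gene and among the weakest of its list, with a −log10 q of 9.01. Cep76, which limits centriole reduplication, had its nearest summits 22.7 kb (RFX1) and 39.3 kb (RFX3) away. Cep295, which acts in centriole maturation, had summits of both 85.7 kb away. Cep350, which helps to keep centrioles stable, had its nearest RFX1 summit 427 kb away, the farthest of any Cep gene, and its nearest RFX3 summit 249.6 kb away.

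None of the 3 linker genes was bound, which allows a share of up to 70.8% by the interval. Cep250 encodes C-Nap1, which anchors the fibres that join a centriole pair, and its nearest RFX1 summit was 9.50 kb away. Cep68, another linker component, had RFX1 and RFX3 summits 119.7 and 119.8 kb away. Cep85, which restrains the linker kinase NEK2, had summits of RFX1, RFX2 and RFX3 together at 27.3, 27.3 and 27.2 kb.

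Of 7 genes grouped under pericentriolar material, spindle and division, Cep128 and Cep170 were bound (interval 3.67 to 71.0%, against 10.1% of all genes), each by all 3 factors. With so few genes, the intervals of the 4 role groups for binding by at least 1 factor overlapped. Each included the 10.1% of all genes bound by at least 1 factor. Cep128 and Cep170 both encode proteins of the subdistal appendages, which anchor microtubules at the mother centriole. None of the other genes in their group was bound, so its name should not be read as a trait of the bound genes. Cep128 lies on chromosome 12 at 90998490–91384455. The RFX1 peak had a fold of 7.45, the RFX2 peak 9.43 and the RFX3 peak 3.46, with −log10 q of 55.0, 29.6 and 27.2. The summits were 87, 81 and 108 bp inside the gene. Its promoter window held no X-box match. No other gene end lay within 1 kb of these summits.

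Cep170 lies on chromosome 1 at 176729072–176813979, and its peaks were the farthest from an end among the bound genes. The RFX1 peak had a fold of 11.7 and a −log10 q of 112, with 5.94% of its list above it. The RFX2 peak had a fold of 5.74 and a −log10 q of 18.5, close to the lowest value of that list (18.2), and 98.6% of the list ranked above it. The RFX3 peak had a fold of 3.55 and a −log10 q of 33.7. The summits were 740, 802 and 708 bp from Cep170 but 59, 121 and 27 bp from an end of Sdccag8, which encodes a centrosomal protein mutated in a human ciliopathy. All 3 factors thus lay closer to Sdccag8 than to Cep170. The Cep170 promoter windows held no X-box match, but the summits lay 734 to 828 bp before the listed start, outside those windows. The sequence at the summits was therefore not searched.

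Cep57, which organises pericentriolar material, had summits 91.6 kb (RFX1 and RFX2) and 48.0 kb (RFX3) away. Cep70, a binding partner of gamma-tubulin, held an X-box match with 1 mismatch in its promoter window, but its nearest RFX3 summit was 19.6 kb away. Cep72, a satellite protein, had RFX1 and RFX3 summits 11.2 kb away. Cep192, the scaffold that recruits pericentriolar material for mitosis, had summits 41.3 kb (RFX1) and 53.9 kb (RFX3) away. Cep55, which recruits the abscission machinery to the midbody, had both 39.2 kb away.

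The Cep70 match and the upstream one of Cep97, both unbound, are set out here for comparison with the bound sites.
Cep97 (chr16:55934922-55934951, minus strand): tcccacattGTAGCCAGCAAGtcccatcag
Cep70 (chr9:99243238-99243267, plus strand): gctacaaaGTAGCCGCAGCAAGtccgggtc

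Cep112 and Cep95 were placed in no role group. Cep112, a coiled-coil centrosomal gene on chromosome 11 at 108425215–108860615, had the best RFX2 and RFX3 peaks of any Cep gene. The RFX1 peak had a fold of 9.42, the RFX2 peak 12.9 and the RFX3 peak 6.80, with −log10 q of 116, 55.8 and 86.9. The share of each list above these peaks was 5.54%, 15.3% and 4.53%. The summits were 93, 133 and 104 bp before the listed start, with no other gene end within 1 kb. They lay 15, 55 and 26 bp from the centre of the nearer X-box match and 141, 101 and 130 bp from the farther one. Cep112 also had RFX1 and RFX3 peaks 2435 and 2480 bp inside its other end, with folds of 5.83 and 7.74.

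Cep95, a little studied centrosomal gene on chromosome 11, was not called through its annotated ends. An RFX1 summit lay 1246 bp inside its start but 634 bp from the start in the promoter table, with a fold of 7.58. The window of that start held an X-box match with 1 mismatch, 825 bp from the summit. A further pair of peaks, 13535 bp (RFX1) and 13550 bp (RFX3) from an end, had folds of 9.14 and 7.88. Of the 18 Cep genes not called, Cep20, Cep41, Cep95 and Cep120 had a summit inside the gene or within 5 kb of an end, and 14 had none.

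**Figure D3:**
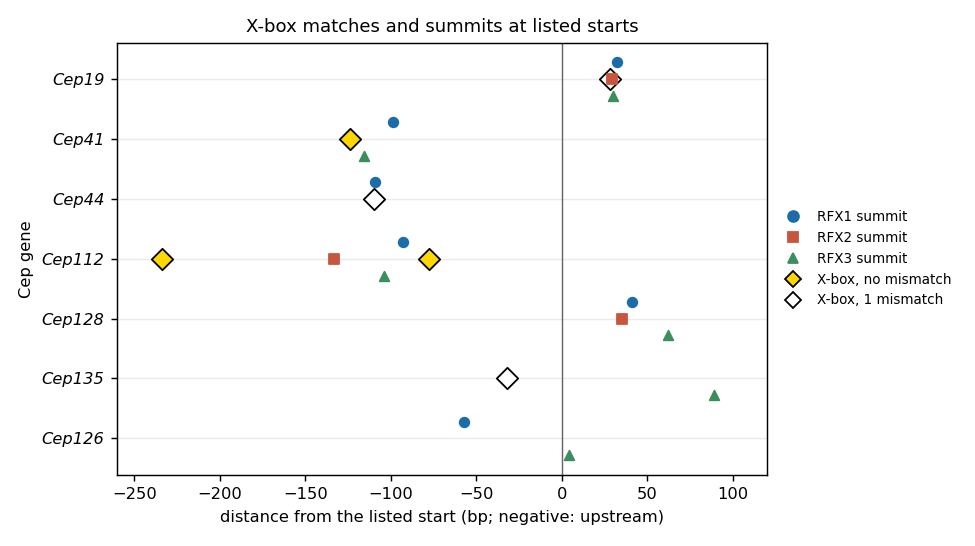
X-box matches (diamonds) and summits (RFX1 circles, RFX2 squares, RFX3 triangles) at the listed start of 7 Cep genes, in bp from the start with negative values upstream. Diamond colour gives the number of mismatches; summits sit on or beside a diamond in Cep19, Cep41 and Cep44, between the 2 diamonds of Cep112, and away from the diamond of Cep135, and Cep128 and Cep126 have no diamond.

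The peaks at Cep genes lay at gene starts. The 17 calls came from only 8 genes, all with a listed strand, and factors called at the same gene shared a region. All 17 were at the start and none at the 3′ end. Among all bound genes with a listed strand the best peak was at the start in 90.7% for RFX1, 92.6% for RFX2 and 89.7% for RFX3. Of the 17 summits, 13 were within 250 bp of the annotated end. The median distance was 64.5 bp over the RFX1-bound Cep genes, against 149 bp over all RFX1-bound genes. It was 81.5 against 117 bp for RFX2 and 108 against 146 bp for RFX3.

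With the starts of the promoter table in place of annotated ends, RFX1 was at 8 of 22 Cep genes (36.4%, 17.2 to 59.3), against 9.46% of the 17491 genes in the table. RFX2 was at 4 (18.2%, 5.19 to 40.3), against 2.28%, and RFX3 at 8 (36.4%, 17.2 to 59.3), against 8.26%. Cep41 gained RFX1 and RFX3 and Cep95 gained RFX1 under this rule. This rule was added after the data were seen.

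X-box matches with at most 1 mismatch were present in the windows of 8 of the 22 Cep genes (36.4%, 17.2 to 59.3), against 12.8% of genes in the table. Matches without mismatch were present in 2 (9.09%, 1.12 to 29.2), against 1.73%. Among the 10 Cep genes with any RFX at a listed start, 6 held a match with at most 1 mismatch (interval 26.2 to 87.8%), against 42.6% of all genes with any RFX there. Among the 12 with no RFX at a listed start, 2 (16.7%, 2.09 to 48.4) held one, against 9.26% of such genes. Both of these intervals included the share of all such genes. The 2 genes with a match and no RFX were Cep70 and Cep97. Cep43, Cep126, Cep128 and Cep170 had RFX at a listed start and no match in the window. The windows were shorter than the 1 kb allowed between a summit and a start. All summits of Cep43 and Cep170 and the RFX3 summit of Cep128 lay outside them, so the sequence at those summits was not searched. Of the 6 genes with RFX and a match, Cep95 had its match 825 bp from its RFX1 summit. Cep135 had its match 121 bp from its RFX3 summit. The arm GTTGCC, read on both strands and contained in some X-box matches, occurred in 6 of 22 Cep windows (27.3%) and in 14.4% of all windows by gene. A match is a description of letters in the window and does not by itself mark a site of binding.

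Among the 6 Cep genes bound by RFX1 at an annotated end, RFX2 was called at the 4 whose RFX1 peaks were strongest. Cep19, Cep112, Cep170 and Cep128, which had RFX2, had RFX1 −log10 q of 133, 116, 112 and 55.0. Cep126 and Cep44, which lacked RFX2, had 19.5 and 15.1. These 2 groups did not overlap, but they would if Cep41, not counted by its annotated ends, were added. Its RFX1 peak by the listed start had a −log10 q of 95.3, with no RFX2 summit within 1 kb of that start. RFX2 was called at 4 of the 6 counted Cep genes (66.7%, 22.3 to 95.7), against 23.0% of all RFX1-bound genes, a share within the interval. Over all RFX1-bound genes the median was 116 for the 455 with RFX2 and 36.1 for the 1525 without, with ranges from 33.6 to 251 and from 12.03 to 164 that did overlap. RFX2 had the shortest list and the highest lowest value of −log10 q, and the part of list length in these calls was not tested. The 2 RFX2 antibody lots cannot be told apart in the merged list.

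**Figure D4:**
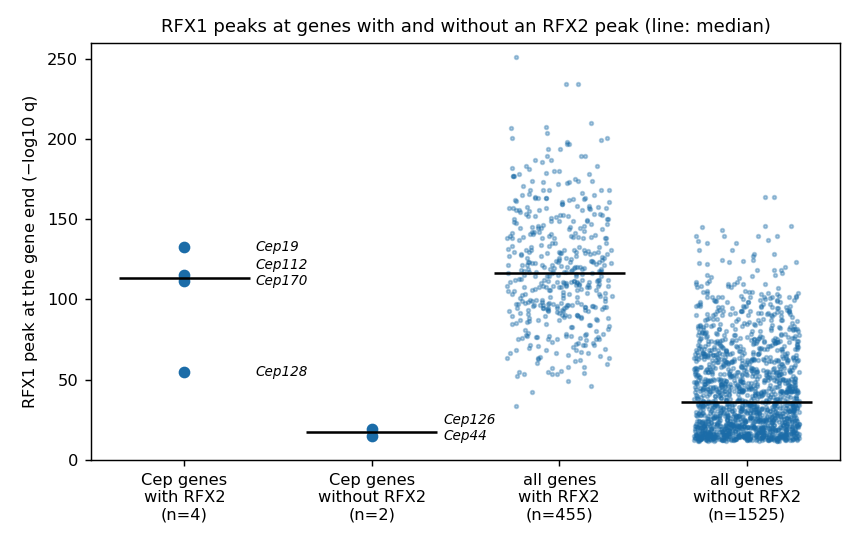
RFX1 −log10 q at the best peak of each RFX1-bound gene, for Cep genes with and without RFX2 and for all genes with and without RFX2; each point is a gene and the line is the median. The 4 Cep genes with RFX2 lie between 55.0 and 133, above the 2 without, which lie at 15.1 and 19.5. Cep41, with an RFX1 peak near its listed start but not its annotated ends, is not shown.

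Peak strength at the bound Cep genes was close to that at all bound genes for RFX2 and RFX3. In the RFX1 list the median −log10 q was 83.4 over the 6 Cep genes, which ranged from 15.1 to 133, against 49.1 at all bound genes. It was 33.2 against 32.3 in the RFX2 list, and 33.7 against 32.6 in the RFX3 list. Median folds at Cep genes were 8.44 (RFX1), 8.84 (RFX2) and 5.01 (RFX3), against 8.49, 8.74 and 4.84 at all bound genes. The median RFX3 folds at Cep genes and at all bound genes were below the median of the whole RFX3 list (7.45), while their −log10 q was above its median (19.9). All 7 RFX3 peaks, 4 of 6 RFX1 peaks and 2 of 4 RFX2 peaks at Cep genes were above the median −log10 q of their list. This was the usual state of bound genes. Over all bound genes the median share of the list ranked above the peak was 29.1% (RFX1), 44.2% (RFX2) and 29.7% (RFX3).

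Where factors were called at the same Cep gene, their summits were close. RFX1 and RFX3 summits were 2 to 61 bp apart over 5 Cep genes (median 21 bp), against a median of 13 bp over 1507 genes with both. RFX1 and RFX2 summits were 3 to 62 bp apart over 4 Cep genes (median 23 bp), against 10 bp over 455 genes. RFX2 and RFX3 summits were 1 to 94 bp apart (median 28 bp), against 15 bp over 451 genes. Cep19 had the closest summits in each comparison with RFX2, and Cep170 the most distant.

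Distances to the nearest summit were also taken over the genes not bound by a given factor, whether or not another factor was bound there. The median was 40.2 kb for RFX1 (20 Cep genes) and 39.2 kb for RFX3 (19 Cep genes). Over all genes not bound by that factor it was 86.2 and 72.9 kb. For RFX2 the median was 678 kb over 22 Cep genes, against 508 kb over all genes not bound by RFX2.

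At 3 of the 8 bound Cep genes, the summits also lay within 1 kb of an end of a neighbouring protein-coding gene. These were Cep19 with Pigx, Cep44 with Fbxo8 and Cep170 with Sdccag8. Among all bound genes, 34.0% of the RFX1 genes, 38.2% of the RFX2 genes and 31.2% of the RFX3 genes were called only through a shared peak. Without such peaks, RFX1 was still at 3 of its 6 Cep genes (Cep112, Cep126 and Cep128) and RFX2 at 2 of 4 (Cep112 and Cep128). RFX3 was still at 5 of 7 (Cep43, Cep112, Cep126, Cep128 and Cep135).

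The Cep genes outside the rule are set beside these by their calls only. Of the 7 left out by name, RFX1 was bound at Cep89, Cep152, Cep162, Cep164 and Cep290, RFX3 at the same genes but Cep152, and RFX2 at Cep162 and Cep164, while Cep63 and Cep83 had none. Of 4 with a letter suffix, Cep295nl had RFX1 and RFX3, and Cep57l1, Cep85l and Cep170b had none.

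Other centrosome genes were counted in 6 lists written by function, of which 88 of 89 symbols matched the annotation. In all, 28 of the 88 had RFX1 (31.8%, 22.3 to 42.6), 9 had RFX2 (interval 4.78 to 18.5%) and 25 had RFX3 (28.4%, 19.3 to 39.0). The corresponding shares of the Cep genes were 23.1%, 15.4% and 26.9%, and the intervals overlapped for each factor. Over all protein-coding genes the shares were 9.05%, 2.08% and 7.94%. Of 24 centriole assembly genes, 7 had RFX1 (29.2%, 12.6 to 51.1), 7 had RFX3 and 1 had RFX2. Wdr90, a centriole wall gene, had all 3 factors with an RFX1 −log10 q of 147, and Tube1, which encodes epsilon-tubulin, had RFX1 (fold 15.8) and RFX3 (fold 6.76). Of 12 appendage genes, 5 had RFX1 (41.7%), the same 5 had RFX3 and 2 had RFX2. The distal appendage genes Sclt1 and Fbf1 had the best RFX1 peaks there, with −log10 q of 108 and 107.

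Of 20 centriolar satellite genes, 9 had RFX1 (interval 23.1 to 68.5%), 7 had RFX3 and 3 had RFX2, led by Ccdc13 (RFX1 fold 10.7) and 4933427D14Rik (9.90). Of 5 linker and rootlet genes outside the Cep series, 3 had RFX1, 3 had RFX3 and 2 had RFX2. Nek2, the kinase that dissolves the linker, and Crocc2, a rootletin relative, had all 3 factors, with RFX1 folds of 15.7 and 10.4. The 3 linker genes of the Cep series had none. Of 19 pericentriolar material genes, 2 had RFX1, 3 had RFX3 and 1 had RFX2. The RFX1 share there, 10.5% (1.30 to 33.1), was close to the 9.05% of all genes. Tubgcp3, a gamma-tubulin complex gene, had all 3 factors (RFX1 fold 11.0), and Pcnt, which encodes pericentrin, had RFX1 (4.58). Of 8 genes of augmin, a complex that branches spindle microtubules, Haus1 and Haus3 had RFX1 and none had RFX2 or RFX3. The RFX1 intervals of the pericentriolar material and augmin lists included the share of all genes, and those of the other 4 lists, from 12.6% at the lowest, lay above it. The lists were written with earlier results of these data known, so these intervals describe counts and are not a test.

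**Figure D5:**
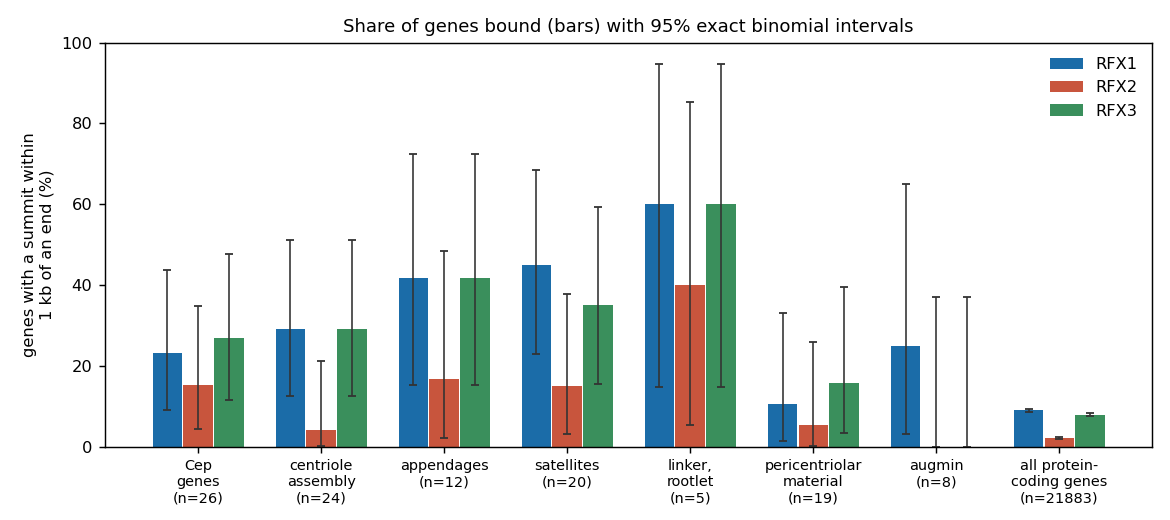
Share of genes with a summit within 1 kb of an end, in percent, for RFX1, RFX2 and RFX3, with the Cep genes at the left, 6 lists of other centrosome genes, and all protein-coding genes at the right. Bars start at 0 and lines are 95% exact binomial intervals; the Cep shares are 23.1%, 15.4% and 26.9%, against 9.05%, 2.08% and 7.94% of all genes.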

How the data were processed

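ChIP-seq peak lists of RFX1, RFX2 and RFX3 were analysed, 1 per factor and already merged over replicates. Per the submitters' processing notes, the tools were MACS2 2.0.10.20130520, Bowtie 0.12.7 and CASAVA 1.8.2, and the genome build was GRCm38; no step is tied to any of them. How peaks qualified as reproducible, their control samples and their depth are not given in the sources used. The authors' deposited score equals 10 times the −log10 q with decimals dropped, checked on all peaks. The deposited fold enrichment is a ratio to background from the authors' peak calling, and the deposited −log10 q and summit offset come from the same step. Summits were set against gene ends and starts with Python 3.11.15, numpy 2.4.6, pandas 2.3.3 and scipy 1.17.1. Steps were tested on simulated data. Of the Cep genes, 4 had no entry in the promoter table. 1 gene that meets the rule for Cep genes is not reported here. Each of the 26 Cep genes was named, and in each centrosome list the 2 bound genes with the highest RFX1 −log10 q. The Cep genes, lists and rules were chosen with earlier results of these data known. No set test was made, since genes are not replicates. Alternatives changed the window, peak quality, list length, gene end, shared peaks and gene rule.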

Additional observations from a re-analysis of the deposited data

How the results depend on the processing

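Of 55 recomputed counts of bound Cep genes over 11 alternatives, 44 stayed within 1.5 times the reported ones. Some of the 44 could not change. The RFX2 list holds only 1250 peaks, so its best 1250 are the whole list. All 17 calls were already at annotated starts, so a limit to those starts removed none. A share over all genes was set beside these counts only for the starts of the promoter table. With the best 1250 peaks of each list, RFX1 was bound at 3 Cep genes, RFX3 at 2, all 3 factors at 2 and at least 1 factor at 4. With a fold of at least 4, all 3 factors were at 2. With the better-scoring 50% of peaks, RFX2 was at 2 and all 3 factors at 2. Without peaks shared with a neighbouring gene, RFX1 was at 3, RFX2 at 2, all 3 factors at 2 and at least 1 at 5. These alternatives use fewer peaks by construction. No paired analysis was possible because the replicates of each factor were merged in the deposited lists, so no replicate could be left out either. Sequencing depth is unknown, which limits what a missing peak shows.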
